A study of Arabidopsis thaliana with 12 samples.

Results

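Transcript levels of 4 genes of cell division and the root meristem were followed in Arabidopsis thaliana root tips: the mitotic kinase genes AUR1 (AT4G32830) and AUR2 (AT2G25880), the DNA replication gene PRL (AT4G02060, PROLIFERA, which encodes MCM7) and the meristem transcription factor gene BBM (AT5G17430, BABY BOOM). They were chosen by name, and each had 1 probe set on the ATH1 array whose annotation names that gene alone, so that they make up 4 of the 13356 genes with a probe set of their own. They serve as a readout of whether meristem activity had moved after 6 h on indole-3-butyric acid (IBA). The groups were the triple mutant ibr1ibr3ibr10 on 10 µM IBA, the same mutant on DMSO, the wild type Col-0 on 10 µM IBA, and Col-0 on DMSO. The mutant is in the Col-0 background, and DMSO is the solvent control. All seedlings were transferred to their medium 3 days after germination and kept there for 6 h. Segments of about 4 mm were then cut from the tip of the primary root. Each group had 3 replicates, described as biologically independent, with 1 array each. RNA came from pooled segments, at least 120 root tips being sampled for a treatment. The titles of the DMSO samples name 0 h, while their other labels give 6 h on DMSO, which is used here. The titles of the mutant samples name only ibr3, while their genotype labels give the triple mutant, which is likewise used here. The sampled tissue was the whole tip, in which the dividing cells are a part.

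AUR1 and AUR2 encode the alpha Aurora kinases, which sit on the spindle and the forming cell plate and help to set the plane of formative divisions. MCM7 is a subunit of the MCM complex, the helicase loaded at replication origins in G1 and used through S phase. BBM belongs to the AP2 family of PLETHORA-like factors that maintain the stem cell niche and the dividing zone of the root. IBA is an auxin precursor whose side chain is shortened in peroxisomes to give active auxin, a step that needs the enzymes IBR1, IBR3 and IBR10. Auxin in roots is known both to maintain the meristem and, at higher levels, to restrict elongation and to start lateral roots from the pericycle.

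The values are log2 expression values made with RMA, a method that sets the arrays on a common scale, and a difference of 1 on this scale is a doubling. They ran from 1.401 to 13.44, and arrays of one group correlated at 0.995 to 0.998 over all probe sets, against 0.982 to 0.996 between groups. A difference was called when its p-value from limma, adjusted over 22746 probe sets, was below 0.05. At this threshold 9.36% of probe sets were called for the IBA response of the mutant and 23.5% for that of Col-0. No probe set names IBR1, IBR3 or IBR10 alone, so neither genotype name in the labels was checked here against the mutated genes. The spiked bacterial control transcripts averaged 5.26 on Col-0 IBA arrays (4.96 to 5.51), against 4.82 to 4.95 in the means of the other 3 groups, whose arrays ran from 4.76 to 5.02. Scaling to them sets the median IBA response of all probe sets at 0.08 in the mutant, in place of -0.01, and at -0.48 in Col-0, in place of -0.04, so changes are given relative to the RMA scale, with the scaled value where it alters a statement.

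AUR2 was the 1 member of 4 that changed on IBA in Col-0 by the test within that genotype. Its values were 6.60, 6.51 and 6.32 on mutant IBA arrays, against 6.73, 6.70 and 6.78 on mutant DMSO arrays. The Col-0 arrays gave 6.32, 6.56 and 6.50 on IBA, against 6.73, 6.76 and 6.77 on DMSO. Every one of the 6 IBA arrays thus lay below every one of the 6 DMSO arrays, a separation found in 4.98% of all probe sets (the opposite one in 5.59%). In the mutant the difference was -0.26 (SE 0.086, 95% interval -0.45 to -0.076, adjusted p = 0.0767) and did not pass. It passed when the 30% of dimmest probe sets were left out (0.0479), with a variance trend and robust settings (0.0438) and with array weights (0.0452). Scaled to the spiked transcripts, the mutant difference was -0.16 (adjusted p = 0.894). With 1 array left out it did not pass either (adjusted p from 0.0554 to 0.283). In Col-0 AUR2 fell by 0.29 on the log2 scale (SE 0.086, 95% interval -0.48 to -0.11, adjusted p = 0.0240), so that it decreased by 18.4%. It was lower on 3 of 3 IBA arrays than on any DMSO array. Called falls made up 11.4% of all probe sets in that comparison and called rises 12.1%, so nothing is read from a count of 1 among 4 members. The call was lost without Col-0 IBA replicate 1 (adjusted p = 0.0928), Col-0 DMSO replicate 2 (0.0613) or Col-0 DMSO replicate 3 (0.0672), and scaling to the spiked transcripts made the difference -0.73. In a bulk sample like these root tips, fewer cells that express a gene and less of its RNA per cell cannot be told apart.

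AUR1, the other alpha Aurora gene, had smaller estimates, but whether it responded less than AUR2 was not tested. Its values were 7.25, 7.31 and 7.24 on mutant IBA arrays, against 7.43, 7.37 and 7.43 on mutant DMSO arrays. In Col-0 they were 7.44, 7.26 and 7.30 on IBA, against 7.53, 7.41 and 7.56 on DMSO. The mutant groups did not overlap, while in Col-0 the IBA array of replicate 1 lay above the DMSO array of replicate 2. The differences were -0.14 in the mutant (SE 0.073, adjusted p = 0.275) and -0.17 in Col-0 (SE 0.073, 95% interval -0.33 to -0.011, adjusted p = 0.119), and neither passed. Centring each array on its median (-0.24, adjusted p = 0.0256) and scaling to the spiked transcripts (-0.61, adjusted p = 0.00222) brought the Col-0 difference past the threshold. For either Aurora gene in Col-0, a difference of about 0.21 (AUR1) or 0.25 (AUR2) was the smallest that could have been called. AUR1 and AUR2 are close relatives, and whether either probe set also reads the other gene's transcript was not analysed here.

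PRL, the MCM7 gene, did not change by the test in either genotype on the RMA scale. Its estimates were smaller than those of both Aurora genes, but whether the genes differed in response was not tested. It measured 7.71, 7.67 and 7.60 on mutant IBA arrays, against 7.79, 7.76 and 7.74 on mutant DMSO arrays. The Col-0 values were 7.76, 7.82 and 7.65 on IBA, against 7.81, 7.80 and 7.92 on DMSO. The groups were apart in the mutant and overlapped in Col-0. The difference was -0.11 in the mutant (SE 0.072, adjusted p = 0.422) and -0.098 in Col-0 (SE 0.072, adjusted p = 0.372). Scaled to the spiked transcripts, the Col-0 difference was -0.54 and was called, as were falls of 71.6% of all probe sets. As percentages the 95% interval spanned -16.6% to 3.39% in the mutant and -16.1% to 4.05% in Col-0. A PRL difference had to reach 0.24 in the mutant or 0.21 in Col-0 to be called.

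BBM was the one member whose estimates pointed in different directions in the genotypes. On mutant arrays BBM measured 5.06, 4.91 and 4.85 with IBA, against 5.20, 5.17 and 5.30 with DMSO, with no overlap. On Col-0 arrays it measured 5.16, 5.28 and 5.05 with IBA, against 5.09, 4.95 and 5.29 with DMSO, and the groups overlapped almost fully. The difference was -0.28 in the mutant (SE 0.097, 95% interval -0.49 to -0.076, adjusted p = 0.0865), just outside the threshold. In Col-0 it was 0.048 (SE 0.097, 95% interval -0.16 to 0.26, adjusted p = 0.773), a sign that turned to -0.019 with median centring, -0.025 with quantile normalization and -0.39 with scaling to the spiked transcripts. With that last scaling the BBM fall in Col-0 was called (adjusted p = 0.0324), as were falls of 71.6% of all probe sets. BBM also had the widest spread within groups of the 4, with a residual SD of 0.12, against 0.067 for AUR1, 0.0995 for AUR2 and 0.064 for PRL.

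**Figure D1:**
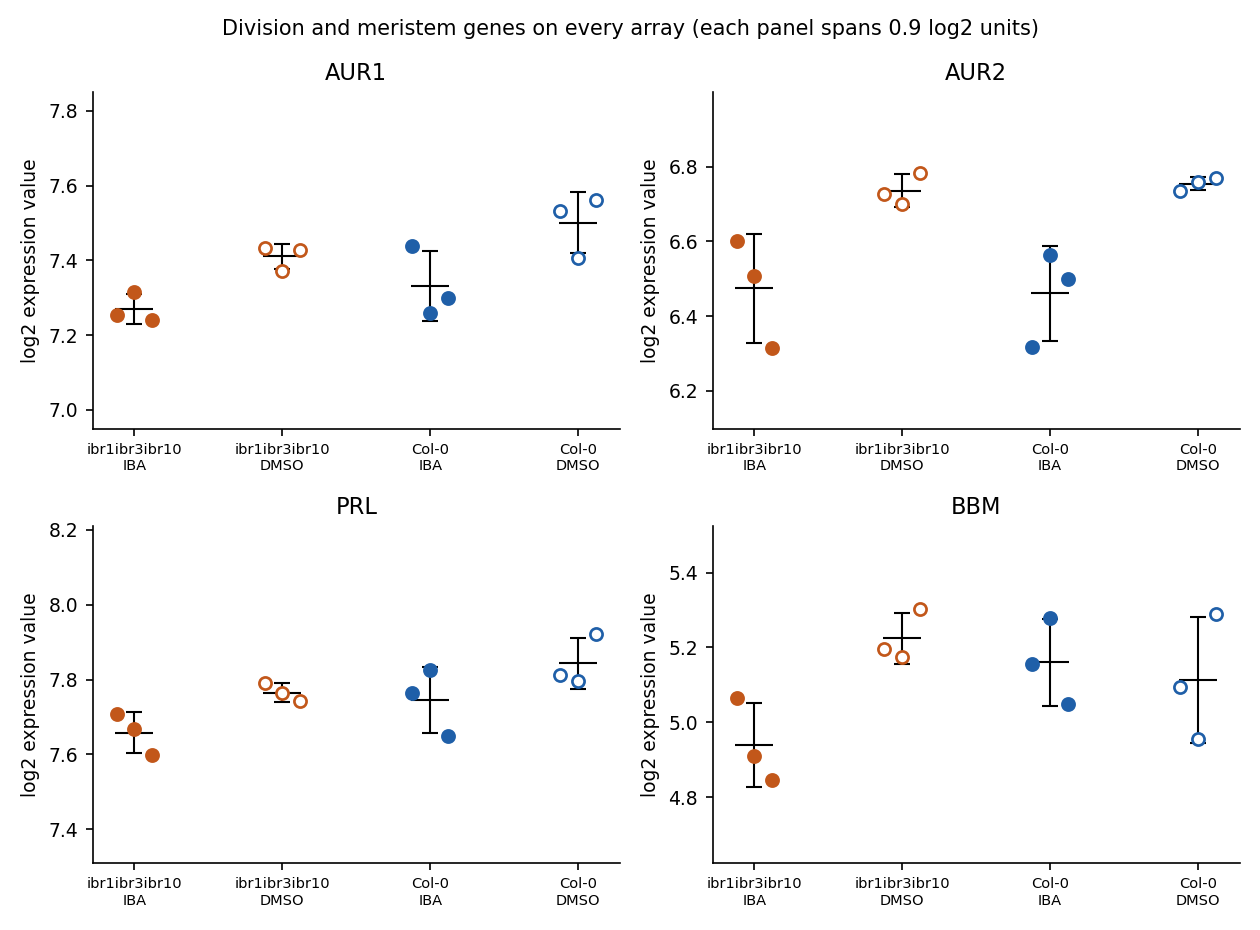
Log2 expression values of AUR1, AUR2, PRL and BBM on every array, by genotype and medium (x axis). Points are single arrays, filled for IBA and open for DMSO, and bars give the group mean with its SD (n = 3). All 6 AUR2 points on IBA sit at 6.60 or below and all 6 on DMSO at 6.70 or above, while the BBM points of Col-0 overlap.

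In the mutant all 4 members lay below their DMSO values on every IBA array, without overlap, and 0 of the 4 were called by limma. A separation in that direction was found in 16.8% of all probe sets in the mutant and the opposite one in 14.3%. In Col-0 it was found in 20.0%, against 16.6% for the opposite, and held for AUR2 alone among the members. Before adjustment, 2 of the 4 (AUR2 and BBM) had a p from limma under 0.05 in the mutant, as did 22.9% of all probe sets. In the mutant 3.87% of probe sets were called lower on IBA and 5.49% higher. The sign of all 4 mutant estimates was the same under each scaling tried, with values between -0.0099 and -0.19 when scaled to the spiked transcripts.

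The difference between the genotypes' responses was small for AUR1, AUR2 and PRL. Taken as mutant minus Col-0, it was 0.027 for AUR1 (SE 0.10, 95% interval -0.20 to 0.25, adjusted p = 0.928), 0.032 for AUR2 (SE 0.12, -0.23 to 0.29, 0.928) and -0.0091 for PRL (SE 0.10, -0.23 to 0.21, 0.979). These intervals leave room for a difference about as large as the Col-0 responses themselves, so they do not show that the genotypes responded alike. With scaling to the spiked transcripts, the difference reached 0.56 for AUR1 (adjusted p = 0.0436), 0.57 for AUR2 (0.0422) and 0.53 for PRL (0.0512), beside a median of 0.55 over all probe sets. For BBM the mutant response was more negative by -0.33 (SE 0.14, 95% interval -0.63 to -0.038), which did not pass after adjustment (adjusted p = 0.202), and scaling to the spiked transcripts turned it to 0.21. A BBM difference had to reach 0.49 to be called. In this comparison 6.50% of all probe sets were called (2.95% higher and 3.54% lower) and 0 of the 4 members. Before adjustment, limma's p was under 0.05 for BBM alone among them and for 18.5% of all probe sets.

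The mean of both genotypes' responses was tested as well, a contrast added after the values had been seen. For BBM it averages estimates of opposite sign. On average over both genotypes AUR2 fell by 0.28 (SE 0.061, 95% interval -0.41 to -0.15, adjusted p = 0.00383) and so decreased by 17.5%. AUR1 fell by 0.15 (SE 0.052, 95% interval -0.27 to -0.043, adjusted p = 0.0400) and so decreased by 10.2%. PRL (-0.10, SE 0.051, adjusted p = 0.165) and BBM (-0.12, SE 0.068, adjusted p = 0.237) did not pass. In this contrast 26.9% of all probe sets were called, 13.0% as higher and 13.8% as lower, beside 2 of the 4 members lower. The AUR2 call held without any 1 of the 12 arrays, with an adjusted p of at most 0.0119. The AUR1 call was lost without any 1 of 9 of the 12 arrays, with an adjusted p of up to 0.0895. Scaled to the spiked transcripts, the mean difference was -0.45 for AUR2 and -0.33 for AUR1.

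Between the genotypes themselves the 4 members differed by less than the test could call on either medium. On IBA the mutant minus Col-0 was -0.062 for AUR1 (adjusted p = 0.699), 0.014 for AUR2 (0.956), -0.087 for PRL (0.548) and -0.22 for BBM (SE 0.097, 95% interval -0.43 to -0.013, adjusted p = 0.193), and the arrays overlapped for each. On DMSO it was -0.089 for AUR1 (adjusted p = 0.667), -0.018 for AUR2 (0.956), -0.078 for PRL (0.710) and 0.11 for BBM (0.690). PRL was the one member whose DMSO arrays did not overlap between genotypes, with the 3 mutant arrays at 7.74 to 7.79 and the 3 Col-0 arrays at 7.80 to 7.92, as for 11.4% of probe sets, against 10.5% with the mutant higher. In these comparisons 11.0% of all probe sets were called on IBA (5.95% higher and 5.08% lower) and 2.42% on DMSO (1.82% higher and 0.602% lower), and 0 of the 4 members on either medium. Before adjustment, limma's p was under 0.05 on IBA for 22.0% of probe sets and for BBM alone among the members, and on DMSO for 13.8% and for 0 members. Scaling to the spiked transcripts turned the IBA differences of AUR1 (0.34), PRL (0.32) and BBM (0.18) positive and raised that of AUR2 to 0.42 (adjusted p = 0.0337), while the median of all probe sets stood at 0.40.

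**Figure D2:**
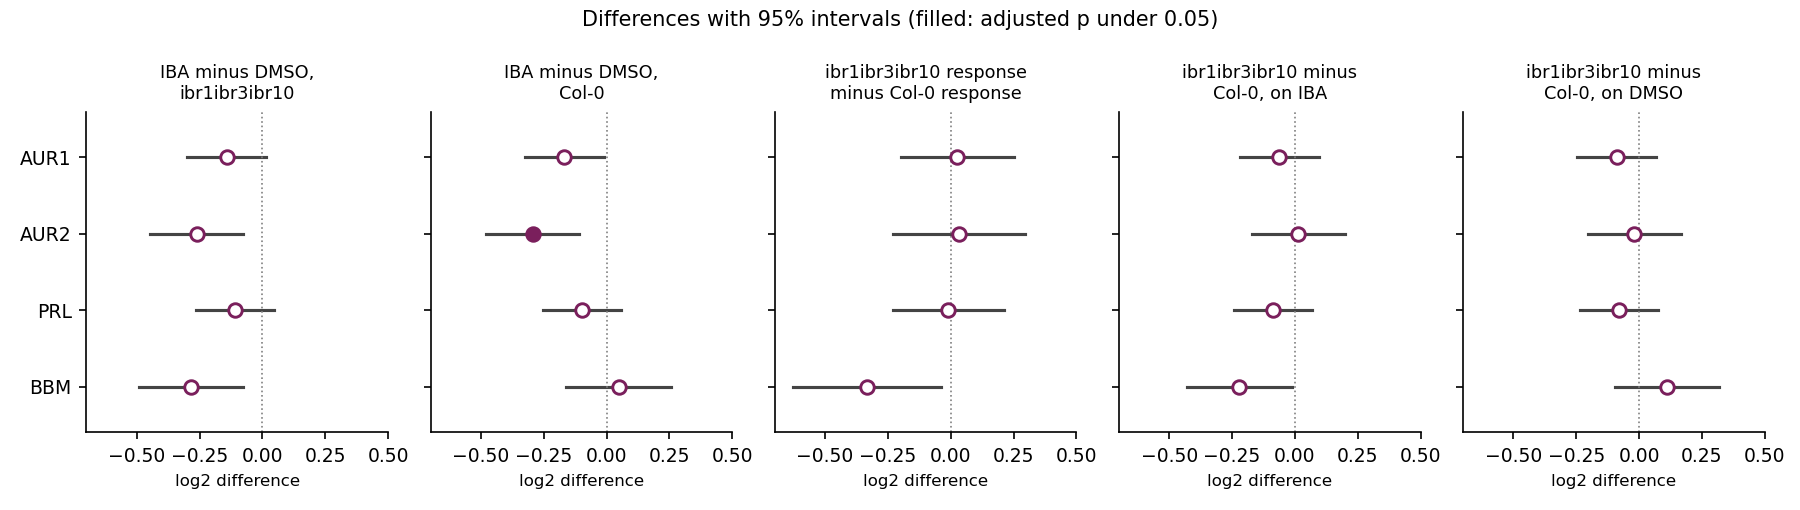
Log2 differences of AUR1, AUR2, PRL and BBM in 5 comparisons, with bars for the 95% interval from limma and filled points for an adjusted p under 0.05. The single filled point is AUR2 in the IBA response of Col-0 (-0.29). The widest gap between the genotypes' responses is that of BBM (-0.33), whose sign turned when arrays were scaled to the spiked transcripts.

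The order of the group means set AUR2 apart from BBM. For AUR2 the means were 6.47 ± 0.14 in the mutant on IBA and 6.46 ± 0.13 in Col-0 on IBA, below 6.74 ± 0.043 in the mutant on DMSO and 6.75 ± 0.018 in Col-0 on DMSO (SD, n = 3 each). Within a medium the genotypes overlapped, and between media no arrays did. For AUR1 the order from the lowest was the mutant on IBA (7.27 ± 0.040), Col-0 on IBA (7.33 ± 0.094), the mutant on DMSO (7.41 ± 0.034) and Col-0 on DMSO (7.50 ± 0.081). PRL followed the same order, from 7.66 ± 0.056 over 7.75 ± 0.089 and 7.77 ± 0.025 to 7.84 ± 0.069. Neighbours in the AUR1 order overlapped, whereas in the PRL order the mutant and Col-0 on DMSO did not. BBM had its lowest mean in the mutant on IBA (4.94 ± 0.11) and its highest in the mutant on DMSO (5.22 ± 0.069), with Col-0 on IBA (5.16 ± 0.12) and Col-0 on DMSO (5.11 ± 0.17) between them and overlapping both.

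Set among all probe sets, the members' changes were modest. In the mutant 5.76% of probe sets had a lower IBA response than BBM, 7.03% a lower one than AUR2, 20.6% than AUR1 and 27.2% than PRL. In Col-0 the shares were 9.97% for AUR2, 24.8% for AUR1, 37.9% for PRL and 66.7% for BBM. The middle 90% of probe sets lay between -0.30 and 0.38 in the mutant and between -0.40 and 0.62 in Col-0, and all 8 member values fell inside. Changes were also taken relative to the median of all probe sets. Median centring and scaling to the spiked transcripts shift whole arrays, so by construction they cannot alter this measure. The changes of AUR2 were then -0.25 in the mutant and -0.25 in Col-0, and those of AUR1 were -0.13 and -0.13. For PRL they were -0.094 in the mutant and -0.057 in Col-0, and for BBM -0.27 in the mutant and 0.089 in Col-0. Quantile normalization can alter the measure. With it, the changes of BBM were -0.27 in the mutant and 0.011 in Col-0, and those of AUR2 -0.25 and -0.29.

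**Figure D3:**
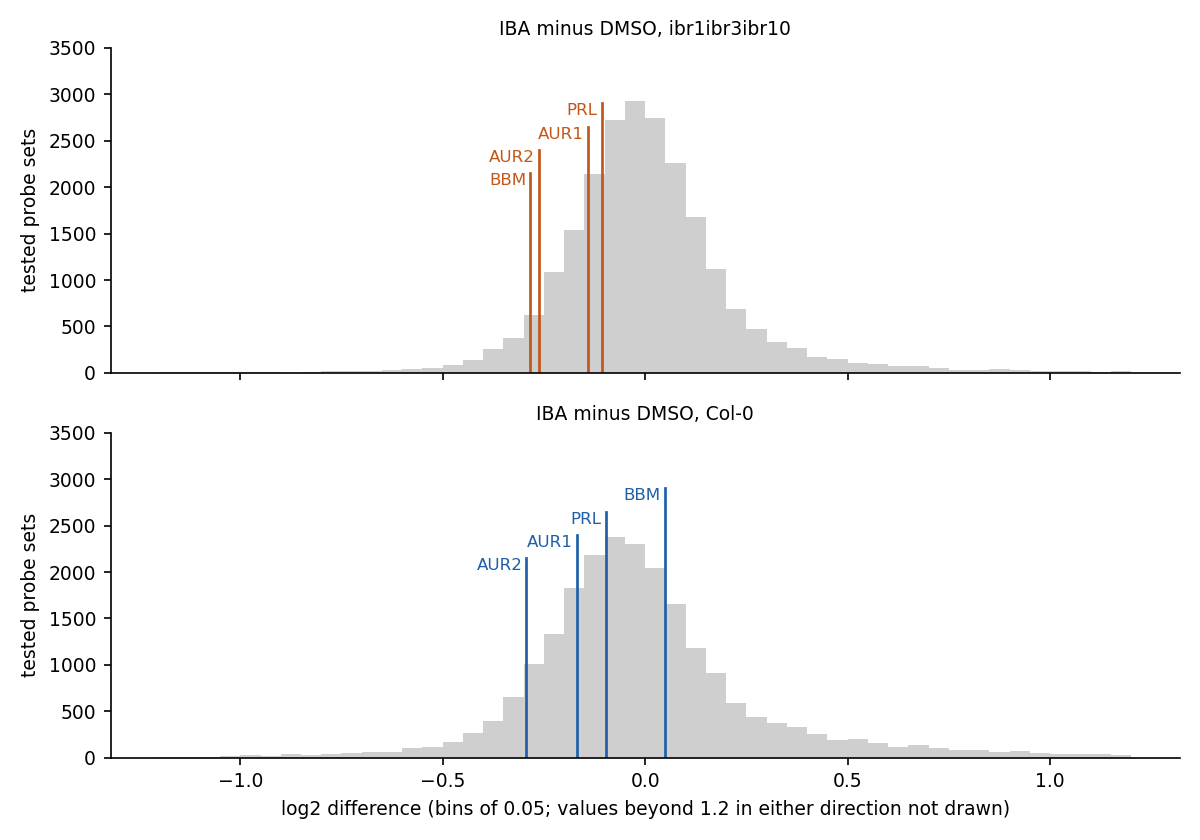
Number of probe sets (y axis) by log2 difference between IBA and DMSO (x axis, bins of 0.05), with the mutant above and Col-0 below, and lines at the 4 members. All lines fall within the body of the distribution. BBM is the lowest member in the mutant (-0.28) and the highest in Col-0 (0.048), where its sign turns with other scalings.

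Over the 12 arrays the 4 members varied in the same direction, with Pearson correlations from 0.46 (AUR1 and BBM) to 0.73 (AUR1 and PRL). These are descriptions over arrays that share the media. With the group means removed, the correlation was 0.83 for PRL and BBM and -0.34 for AUR1 and AUR2.

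The genes with the profile most like a member were taken by Pearson correlation over the 12 arrays among 8846 other probe sets that name 1 gene and are not among the dimmest. None of the genes named for 1 member recurred for another. For AUR1 they were DECOY (0.94), AT5G24840 (0.94), AT2G40290 (0.94), AT3G28670 (0.93) and AT2G37890 (0.93). For AUR2 they were AT3G09720 (0.95), AT5G63220 (0.95), AT1G24610 (0.94), ENOC (0.93) and AT5G47940 (0.93). TRM82, FY and AT2G35790 (0.94 each) led for PRL, before AT3G44590 and AT5G41970 (0.93 each). For BBM they were AT3G57030, SAMTL and AT4G29440 (0.90 each), UBP26 (0.89) and AT3G45090 (0.88). The most opposed profiles were those of AT5G06280 for AUR1 (-0.91), AT4G28300 for AUR2 (-0.94), AT5G12010 for PRL (-0.93) and AT3G56290 for BBM (-0.82). The next were bHLH104 and AT5G43560 for AUR1, AFR and AT2G16660 for AUR2, AT1G53050 and AT5G56980 for PRL, and AT3G29270 and AT5G13770 for BBM. No list gene described below was among these.

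Of 225 other genes of division, replication, meristem maintenance, the endocycle and lateral root initiation, 23 had a probe set naming them alone. Among 9 measured of 59 listed genes of mitosis and cytokinesis, 0 rose and 1 fell in each genotype, beside 3.87% of all probe sets called lower in the mutant and 11.4% in Col-0. The list's median change was -0.20 in the mutant, beside -0.01 over all probe sets, and -0.029 in Col-0, beside -0.04. HTR12, the histone that marks centromeres, differed by -0.27 in the mutant (adjusted p = 0.129) and fell by 0.35 in Col-0 (SE 0.11, adjusted p = 0.0278), with 5.14 to 5.42 on IBA arrays against 5.55 to 5.84 on DMSO arrays. Leaving out either Col-0 DMSO replicate 1 or Col-0 IBA replicate 2 ended the HTR12 call (highest adjusted p = 0.119). UBC20, a ubiquitin-conjugating enzyme gene linked to cyclin turnover, fell by 0.26 in the mutant (SE 0.071, adjusted p = 0.0361), with -0.15 in Col-0 (adjusted p = 0.167). The UBC20 call in the mutant was lost without any 1 of 4 of the 6 mutant arrays (adjusted p up to 0.138) and when scaled to the spiked transcripts (-0.16, adjusted p = 0.897). In Col-0 UBC20 passed with median centring (-0.21, adjusted p = 0.0336) and when scaled to the spiked transcripts (-0.59, 0.00278). Scaled in that way, 0 genes of the list were called lower in the mutant and 7 in Col-0, beside 0.655% and 71.6% of all probe sets.

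The other mitotic genes did not pass in either genotype on the RMA scale. AUR3, the beta Aurora kinase gene that acts at centromeres, differed by 0.017 in the mutant and -0.053 in Col-0 (SE 0.12 each). Scaled to the spiked transcripts, its Col-0 difference was -0.49 (adjusted p = 0.0138). Whether AUR3 responded otherwise than the alpha Aurora genes was not tested. WYR, the INCENP partner of Aurora kinases, differed by -0.20 in the mutant and 0.045 in Col-0. The spindle checkpoint genes BUBR1 (-0.33 in the mutant, adjusted p = 0.0525, and -0.0046 in Col-0) and BUB3.1 (-0.21 in the mutant and -0.16 in Col-0) did not pass. BUBR1 passed in the mutant with median centring (adjusted p = 0.0464), with the replicate block (0.0432) and without mutant IBA replicate 1 (0.00287), and BUB3.1 passed in Col-0 with median centring (0.04997). Scaled to the spiked transcripts, both passed in Col-0, at -0.45 for BUBR1 and -0.60 for BUB3.1. HBT, a subunit gene of the anaphase-promoting complex, differed by -0.17 in the mutant and 0.096 in Col-0. UBC19 differed by 0.043 in the mutant and -0.029 in Col-0. KEU, which acts in the vesicle fusion that builds the cell plate, differed by 0.15 in both. Scaled to the spiked transcripts, WYR (-0.40, adjusted p = 0.0286) and UBC19 (-0.47, 0.0129) were called lower in Col-0. HBT (-0.34) and KEU (-0.29) did not pass there. On the mean of both responses, added after the values had been seen, HTR12 (-0.31, adjusted p = 0.00664), UBC20 (-0.20, 0.00854) and BUB3.1 (-0.18, 0.0305) were called lower and 0 of the 9 higher, beside 13.8% of all probe sets called lower. The BUB3.1 call was lost without any 1 of 6 of the 12 arrays (highest adjusted p = 0.0854).

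Of the G1 and S phase genes, 2 of 78 were measured, and the MCM genes other than PRL were not among them. PSF2, a subunit gene of the GINS complex that works beside the MCM helicase, differed by -0.16 in the mutant (adjusted p = 0.328) and fell by 0.32 in Col-0 (SE 0.091, adjusted p = 0.0208), with 5.74 to 5.88 on IBA arrays against 6.09 to 6.18 on DMSO arrays. Leaving out 1 of Col-0 DMSO replicates 1 and 2 and Col-0 IBA replicate 1 ended that call (highest adjusted p = 0.0697). The share of all probe sets called lower in Col-0 was 11.4%. ICU2, the catalytic subunit gene of DNA polymerase alpha, differed by 0.050 in the mutant and -0.078 in Col-0 and did not pass on the RMA scale. Scaled to the spiked transcripts, its Col-0 difference was -0.52 (adjusted p = 0.00708). The median of both genes was -0.055 in the mutant, which turns to 0.042 when scaled to the spiked transcripts, and -0.20 in Col-0.

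Among 7 measured of 52 listed genes of the meristem and the stem cell niche, 1 rose and 0 fell in the mutant and 2 rose and 0 fell in Col-0, beside 5.49% of all probe sets called higher in the mutant and 12.1% in Col-0. The list's median was -0.063 in the mutant and 0.11 in Col-0, and scaled to the spiked transcripts these turn to 0.034 and -0.33. UPB1, a bHLH gene that controls the passage from proliferation to differentiation in roots, rose in both genotypes. It averaged 7.88 ± 0.084 on IBA against 7.13 ± 0.14 on DMSO in the mutant, and 8.26 ± 0.17 on IBA against 6.68 ± 0.33 on DMSO in Col-0 (SD, n = 3 each). The rise was 0.75 in the mutant (SE 0.14, adjusted p = 0.00368) and 1.58 in Col-0 (SE 0.14, adjusted p = 2.12e-06). CR4 (ACR4), a receptor kinase gene of formative divisions, differed by -0.063 in the mutant and rose by 0.36 in Col-0 (SE 0.086, adjusted p = 0.00678), which scaling to the spiked transcripts turns to -0.080.

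None of the remaining 5 meristem genes passed in either genotype on the RMA scale with all arrays. JKD, a zinc finger gene of the ground tissue, differed by -0.17 in the mutant and -0.16 in Col-0. SCL23 (AT5G41920), a GRAS family gene, differed by -0.20 in the mutant and -0.21 in Col-0. LHW, a bHLH gene of vascular divisions, differed by -0.15 in the mutant and 0.15 in Col-0. AGL42, a MADS-box gene active in the quiescent centre, differed by 0.10 in the mutant and 0.11 in Col-0, and CLE40, a signalling peptide gene with a dim probe set (group means of 2.24 to 2.27), by 0.013 in the mutant and 0.020 in Col-0. Scaled to the spiked transcripts, JKD (-0.60, adjusted p = 0.00213), SCL23 (-0.66, 0.00125) and CLE40 (-0.42, 0.0238) were called lower in Col-0. The share of all probe sets called lower in this way was 71.6%. LHW (-0.29) and AGL42 (-0.33) turned negative there and did not pass. Without Col-0 IBA replicate 3, LHW passed in Col-0 on the RMA scale (adjusted p = 0.0411).

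Both measured endocycle genes, of 21 listed, changed in Col-0, in opposite directions, and neither passed in the mutant. Of all probe sets, 12.1% rose and 11.4% fell in Col-0. SIM, an inhibitor of cyclin-dependent kinases that promotes the endocycle, differed by 0.020 in the mutant and rose by 0.28 in Col-0 (SE 0.078, adjusted p = 0.0164), a call lost without Col-0 DMSO replicate 3 (0.0735) and with median centring (0.0603), and turned to -0.16 by scaling to the spiked transcripts. BIN4, a component of the topoisomerase needed for endoreduplication, differed by -0.16 in the mutant and fell by 0.46 in Col-0 (SE 0.12, adjusted p = 0.00937).

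Of 4 measured of 17 listed lateral root genes, CR4 included, 0 rose and 2 (LBD16 and LBD29) fell in the mutant, and 4 rose and 0 fell in Col-0. Of all probe sets, 3.87% were called lower in the mutant and 12.1% higher in Col-0. The LBD29 fall in the mutant (-0.56, adjusted p = 0.0450) was lost with the replicate block (0.0635), when scaled to the spiked transcripts (0.216) and without any 1 of 4 of the 6 mutant arrays (highest 0.174). It was a change between dim levels, with means of 2.43 on IBA and 2.98 on DMSO. PUCHI was also dim in the mutant (2.89 on IBA and 3.04 on DMSO). The 30th percentile of mean level over all probe sets was 3.24. LBD16, a transcription factor gene of lateral root founder cells, averaged 3.36 ± 0.032 on IBA against 4.13 ± 0.10 on DMSO in the mutant, and 5.69 ± 0.25 on IBA against 4.22 ± 0.027 on DMSO in Col-0 (SD, n = 3 each). Its difference of responses, mutant minus Col-0, was -2.24 (SE 0.15, adjusted p = 7.33e-07), beside 0.027, 0.032, -0.0091 and -0.33 for AUR1, AUR2, PRL and BBM. LBD29 and PUCHI differed between the genotypes in the same direction, by -1.88 and -1.07. Of the 23 list genes, 4 had a called difference of responses (LBD16, LBD29, PUCHI and UPB1), beside 6.50% of all probe sets. Scaled to the spiked transcripts, the calls of PUCHI (adjusted p = 0.0618) and UPB1 (0.263) were lost. They were also lost without any 1 of 6 arrays for PUCHI (highest adjusted p = 0.0704) and of 4 arrays for UPB1 (highest 0.0640).

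**Figure D4:**
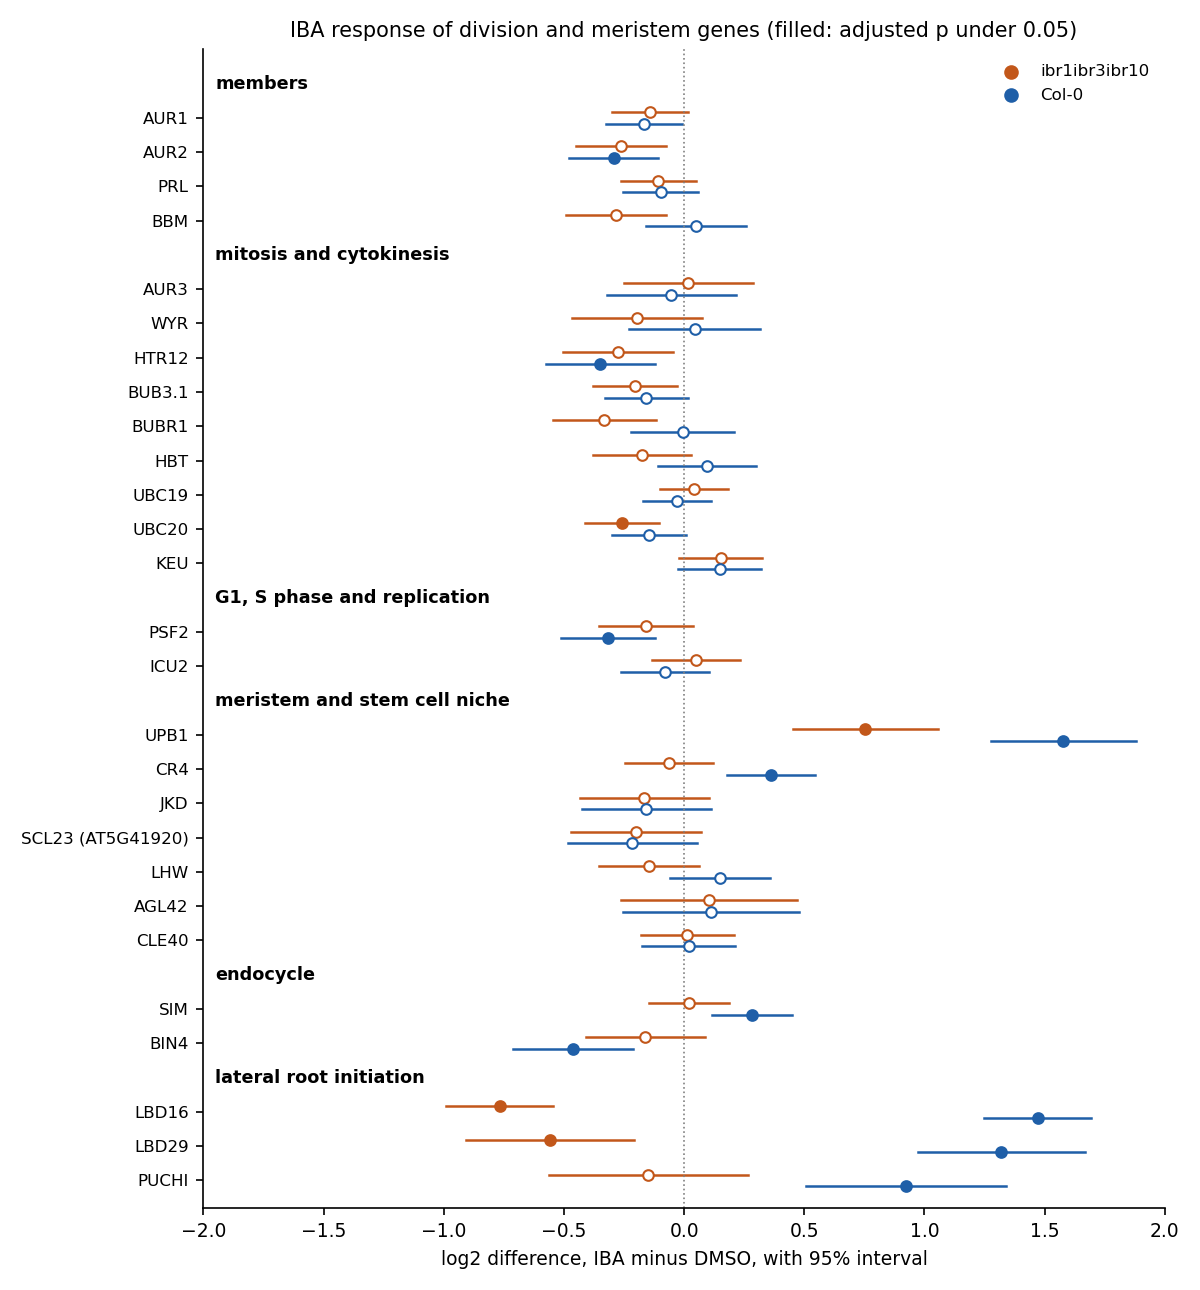
Log2 difference between IBA and DMSO (x axis) for the 4 members and 23 list genes, grouped by list, with the 95% interval from limma. Orange is the mutant and blue is Col-0, and filled points have an adjusted p under 0.05. All estimates of the mitosis, replication and member genes lie between -0.35 and 0.15 in both genotypes, while UPB1, LBD16, LBD29 and PUCHI reach 0.92 to 1.58 in Col-0. Scaled to the spiked transcripts, which sets the Col-0 median of all probe sets at -0.48, most positive Col-0 estimates turn negative. These are BBM, WYR, KEU, HBT, CR4, LHW, AGL42, CLE40 and SIM, while UPB1, LBD16, LBD29 and PUCHI stay positive.

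Markers of the cell types a root tip can hold were sparse, with 7 of 67 listed genes measured and none of the endodermis, xylem or phloem lists. The root cap list had 1 of 10, AT1G65570, a polygalacturonase gene, which differed by -0.12 in the mutant and fell by 1.00 in Col-0 (SE 0.14, adjusted p = 0.000106), with 6.73 to 7.19 on IBA arrays against 7.62 to 8.08 on DMSO arrays. For the root hair and epidermis list, 2 of 12 were measured, and the mean level of both was 7.76 to 7.81 on IBA against 8.13 to 8.27 on DMSO in the mutant, and 8.53 to 8.66 on IBA against 8.44 to 8.58 on DMSO in Col-0. EXPA18 fell by 0.60 (adjusted p = 0.000793) and EXPA7 by 0.26 (0.0389) in the mutant. Scaled to the spiked transcripts, both calls were lost (adjusted p = 0.103 and 0.901), and that of EXPA7 was also lost with the replicate block (0.0561) and without any 1 of 5 of the 6 mutant arrays (highest 0.143). In Col-0 EXPA18 (0.25, adjusted p = 0.0583) and EXPA7 (-0.14, 0.185) pointed in opposite directions, and neither passed. EXPA18 passed there with the replicate block (0.0294). EXPA7 passed with median centring (-0.21, 0.0391) and when scaled to the spiked transcripts (-0.58, 0.0031), which turned EXPA18 to -0.19. On DMSO EXPA18 differed by -0.46, mutant minus Col-0 (adjusted p = 0.0131), a call lost when scaled in that way (0.0942). The stem cell niche list had 2 of 6 measured, BBM itself and AGL42, at a mean of 4.58 to 4.72 on IBA against 4.64 to 4.94 on DMSO in the mutant and 4.69 to 4.99 on IBA against 4.56 to 4.97 on DMSO in Col-0. The pericycle list had LBD16 alone of 4. The list for green shoot tissue had CLV3 alone of 10, at 2.05 to 2.73 over the 12 arrays, among the dimmest 30% of probe sets. Whether shoot tissue was present was not tested. The stem cell niche genes and CLV3 had 0 called IBA responses in either genotype on the RMA scale with all arrays. In Col-0 CLV3 was called lower with median centring (-0.38, adjusted p = 0.0394) and without Col-0 DMSO replicate 2 (0.0461). Scaled to the spiked transcripts, CLV3 (-0.76, adjusted p = 0.000452) and BBM (-0.39, 0.0324) were called lower in Col-0, beside 71.6% of all probe sets. AGL42 was not (-0.33, 0.0816). The part of the root cap, root hair and pericycle genes' changes in those of the members was not tested.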

How the data were processed

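Root tip RNA was hybridised to ATH1 arrays, 3 for each of the 4 groups. The deposited values are log2 expression values per probe set, made with RMA, and affy 1.40.0 is also named, per the submitters' processing notes. RMA corrects the background, normalizes probe intensities between arrays and then summarizes them per probe set, which can reduce a change shared by most transcripts. The deposited arrays still differed in median, as median centring moved the values. No further normalization was applied. Probe sets were named from the platform annotation, with symbols updated through RefSeq: 22810 probe sets, less 64 controls, left 22746 tested, of which 13513 name 1 gene, 503 several and 8730 none here.

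Group means were fitted over all 12 arrays with limma 3.58.1 (lmFit and eBayes) in R 4.3.3, with 8 residual and 5.62 prior degrees of freedom. All p-values are limma's, two-sided, Benjamini-Hochberg adjusted over 22746 probe sets, and a call is an adjusted p under 0.05. The 95% intervals are not adjusted. An exact permutation test of 3 against 3 arrays cannot go below p = 0.1. The script was tested on simulated data with 200 changed probe sets. Members and gene lists were chosen with earlier results of these data known. Every measured list gene is named, since no list had more than 12 measured genes. The 5 most alike and 3 most opposite profiles per member are named among probe sets at or above the 30th percentile of mean level (3.24). The mean of both genotypes' IBA responses was added after the data had been seen. For 28 listed genes no RefSeq gene matched. Precision is limited by the number of arrays. Protein and promoter sequences of the members were not analysed here.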

Additional observations from a re-analysis of the deposited data

Results flagged for a closer look

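The members AUR1, AUR2, PRL and BBM had no response that limma called different between the genotypes, and none of their groups was large enough for a search for single outlying arrays. Among the 23 list genes and 7 marker genes measured, some of them in both, 6 had a called difference of IBA responses in limma's test of the difference itself. Of all probe sets, 6.50% were called in that test. The lists were chosen with earlier results of these data known. The values are differences of responses on the log2 scale, mutant minus Col-0, each followed by its value scaled to the spiked transcripts. LBD16 differed by -2.24 (SE 0.15, adjusted p = 7.33e-07; scaled, -1.70, adjusted p = 8.22e-07). LBD29 differed by -1.88 (SE 0.23, adjusted p = 0.000158), or -1.34 when scaled (adjusted p = 0.000177). PUCHI differed by -1.07 (SE 0.27, adjusted p = 0.0296), and by -0.53 when scaled (adjusted p = 0.0618), and its call was lost without any 1 of 6 arrays (highest adjusted p = 0.0704). UPB1 differed by -0.82 (SE 0.20, adjusted p = 0.0221), with -0.29 when scaled (adjusted p = 0.263), and its call was also lost without mutant IBA replicate 1, mutant IBA replicate 3, Col-0 IBA replicate 2 or mutant DMSO replicate 3 (highest adjusted p = 0.0640). The root hair gene EXPA18 differed by -0.85 (SE 0.13, adjusted p = 0.000855), with -0.31 when scaled (adjusted p = 0.239). The root cap gene AT1G65570 differed the other way, by 0.88 (SE 0.20, adjusted p = 0.0137), or 1.42 when scaled (adjusted p = 2.31e-05).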

How the results depend on the processing

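For the 24 member results (4 members in 6 comparisons), 200 values under other settings kept their direction and their side of the threshold, 10 came past the threshold and 10 changed sign. With 1 array left out, 165 kept both, 12 lost the call and 15 changed sign. Scaling to the spiked transcripts shifts all probe sets by construction. In Col-0 it brought the IBA response of AUR1 to -0.61 and PRL to -0.54 past the threshold, and turned BBM to -0.39, which also passed (adjusted p = 0.0324). It brought the difference of responses to 0.56 for AUR1, 0.57 for AUR2, 0.53 for PRL and 0.21 for BBM, the last 2 of which changed sign. It turned the genotype difference of BBM on DMSO to -0.023 and those on IBA of AUR1 to 0.34, PRL to 0.32 and BBM to 0.18, and raised that of AUR2 to 0.42. Median centring brought the Col-0 response of AUR1 to -0.24 and the mean response of PRL to -0.14 past it, and turned the Col-0 response of BBM to -0.019 and the difference of PRL to 0.049. Quantile normalization turned the Col-0 response of BBM to -0.025. The mutant response of AUR2, -0.26, passed with the dimmest probe sets left out, with a variance trend and robust settings, and with array weights. Otherwise the cause was not tested.

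With 1 array left out, the Col-0 response of AUR2 ranged from -0.35 to -0.22 and that of BBM from -0.031 to 0.14. The difference of responses ranged from -0.0097 to 0.080 for AUR1, -0.040 to 0.11 for AUR2 and -0.057 to 0.030 for PRL. The genotype difference of AUR2 ranged from -0.042 to 0.00030 on DMSO and from -0.058 to 0.093 on IBA. The mean response of AUR1 ranged from -0.18 to -0.14.

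Counts over all probe sets moved more. Scaled to the spiked transcripts, 798 were called higher and 149 lower in the mutant (against 1248 and 881), 723 and 16287 in Col-0 (2758 and 2587), 11637 and 237 for the difference (672 and 806), 13030 and 342 between genotypes on IBA (1353 and 1155), and 1073 and 5449 for the mean response (2967 and 3150). On DMSO 114 were called higher (413). Of the calls, 84.3% were higher in the mutant when scaled in this way, against 58.6%, and 4.25% in Col-0, or 34.7% with median centring, against 51.6%. Between genotypes, the share was 98.0% scaled and 57.1% centred for the difference (45.5%), 97.4% scaled on IBA (53.9%), and 55.1% scaled and 64.2% centred on DMSO (75.1%). For the mean response it was 16.5% scaled and 35.9% centred (48.5%). Median centring gave 4356 lower in Col-0. A variance trend gave 1378 lower in the mutant, and array weights 230 lower on DMSO (137). With 1 probe set per gene, which leaves 13356 to test, the counts higher and lower were 563 and 434 for the mutant response, 1276 and 1444 for that of Col-0, 369 and 365 for their difference, 175 and 73 on DMSO, 712 and 568 on IBA, and 1396 and 1782 for the mean. Without mutant DMSO replicate 2, 779 were called higher in the mutant, and without 1 of 5 mutant arrays 389 to 558 lower. Between genotypes on DMSO, 206 to 249 were called higher and 66 to 75 lower without 1 of 3 arrays.

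The replicate numbers were not taken to pair the samples: deviations of same-numbered arrays correlated at -0.21 to 0.17 over 18 pairs, and 3 of 12 arrays correlated best with their own number. On the same medium, all 6 such pairs were positive (0.023 to 0.17), and 10 of 12 arrays correlated best with their own number, a hint from the data and not the design. With the replicate block, no member's call changed (adjusted p = 0.104 for AUR2 in the mutant and 0.0382 for Col-0), and 2725 probe sets were called higher and 2558 lower in Col-0. With 3 arrays per group, a BBM response had to reach 0.33 in the mutant, or 0.28 in Col-0, to be called. A block within each medium cannot estimate the IBA responses, and was not run for them.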
